A study of Mus musculus with 6 samples.

Results

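The genes described here build the contractile machine of muscle and the membrane system that switches it on and off: myosin heavy and light chains, troponins and tropomyosins, the proteins of the Z-disc, the M-band and the filament scaffold, and the channels, pumps and buffers that release and recover calcium. They are 50 named genes, chosen by exact match of the gene name printed beside each array probe, out of 36406 gene names on the array. Together they have 74 of the 55681 probes. The cells were satellite cells, the resident stem cells of skeletal muscle, from male C57BL/6 mice. The adult group held 3 samples, all from animals of 6 months. The young group held 3 samples, from animals of 3, 2 and 3 months for samples 1, 2 and 3. All 6 samples were sorted from dissociated skeletal muscle in the same way, keeping cells that carried integrin alpha7 and CD34 and removing cells that carried CD31, CD45, CD11b or Sca1. No sample carried a transgene or a treatment, per the labels, which call the samples biological replicates. They give no number of mice for a sample, so p-values measure the spread between these samples. The comparison asked what distinguishes satellite cells of adult mice from those of young mice.

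A sarcomere is the repeating unit in which myosin filaments pull on actin filaments, and each of its proteins comes in isoforms typical of fast fibres, slow fibres, heart or developing muscle. In excitation-contraction coupling, a voltage sensor in the transverse tubule opens the ryanodine receptor of the sarcoplasmic reticulum, calcium binds troponin C on the thin filament, and a calcium pump returns the ion to the store. Satellite cells are mononucleated and have no sarcomeres. Their progeny switch these genes on as they differentiate and fuse into fibres.

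Values are log2 of the processed signal relative to the 75th percentile of the same array, in the order of samples 1, 2 and 3. Each difference of a gene or probe is adult minus young, with its standard error from limma, an empirical Bayes linear model. Adjusted p-values are Benjamini-Hochberg values over all 32109 genes tested, with 0.05 as the threshold. A probe's brightness depends on its sequence as well as on the transcript, so levels of different genes are not set against each other. Markers of the sorted cells were read first. All 12 satellite cell markers were above background on all 6 arrays, among them Pax7, the transcription factor that defines these cells, at 3.70, 3.56 and 3.11 in the adult samples, against 3.93, 3.47 and 3.94 in the young samples. All 12 smooth muscle and mural cell markers, 7 of 8 endothelial and 5 of 8 leukocyte markers were also above background on all 6 arrays. So were 6 of the 7 fibro-adipogenic markers tested, and 25953 genes of the whole array had such a probe. Detection alone therefore does not identify the cells. Between 41528 and 49957 of the probes were well above background on an array. The range was 47554 to 49957 on the adult and 41528 to 45926 on the young arrays. Of the 50 members, 48 were above background on each adult array and 47 to 49 on the young arrays.

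Several results rest on a single 60-base probe, and 5 of these probes that lie in coding sequence are shown so that the transcript region behind each value can be seen. They belong to a fast myosin-binding protein, the calcium release channel, the fast and slow calcium pumps and the fast alpha-actinin. The sequences are those in the array annotation, in the sense of the transcript, 5′ to 3′, in lower case throughout. All lie on the minus strand of build mm9. The probes of Ryr1 and Actn3 each cross at least 1 intron, since their 60 bases span 699 and 486 bases of the genome.
Mybpc2, chr7:51759105-51759164: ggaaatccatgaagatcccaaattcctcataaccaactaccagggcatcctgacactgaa
Ryr1, chr7:29788789-29789487: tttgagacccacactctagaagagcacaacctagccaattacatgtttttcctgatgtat
Atp2a1, chr7:133591703-133591762: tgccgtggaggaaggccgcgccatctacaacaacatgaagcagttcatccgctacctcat
Atp2a2, chr5:122910660-122910719: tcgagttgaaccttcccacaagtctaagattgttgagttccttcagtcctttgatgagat
Actn3, chr19:4861727-4862212: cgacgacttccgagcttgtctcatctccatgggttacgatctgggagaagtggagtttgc

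The contractile and calcium-handling genes did not move as 1 block. Of the 49 members tested, 6 were higher in adult satellite cells than in young ones, 9 were lower and 34 did not pass the threshold. Higher in adult were Casq2, Mybpc2, Cacna1s, Trdn, Myl3 and Myh2. Lower in adult were Ryr1, Sln, Atp2a1, Myl4, Myl2, Myh1, Atp2a2, Tnnt1 and Actn3. Both directions thus occurred within the calcium store, the triad, the light chains and the fast heavy chains. The median difference of the members was -0.09, within a range of -2.72 to 2.89, and 23 differences were positive and 26 negative.

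These counts were read against all genes. Among the members, 30.6% passed the threshold, and among all genes tested 28.5% did. The share of members with a pass is therefore near that of the whole array. By direction, 12.2% of the members were higher and 18.4% lower in adult, against 20.7% and 7.8% of all genes. Among the 17411 genes whose probe was designed to a RefSeq mRNA, 27% passed, 15.5% higher and 11.5% lower. Adult and young values did not overlap for 22 members, which is 44.9%, against 55.5% of all genes and 54.8% of RefSeq mRNA genes. The median difference over all genes was 0.33 and that over RefSeq mRNA genes was -0.01. Scaling shifted the split of the members: 5 were higher and 15 lower when each array was scaled to its median, and 7 were higher and 6 lower with the 75th percentile of probes above background on all arrays. The split over all 32109 genes moved too, from 6633 higher and 2506 lower to 3563 and 8427 with median scaling. With the other percentile it was 7904 and 1783.

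**Figure D1:**
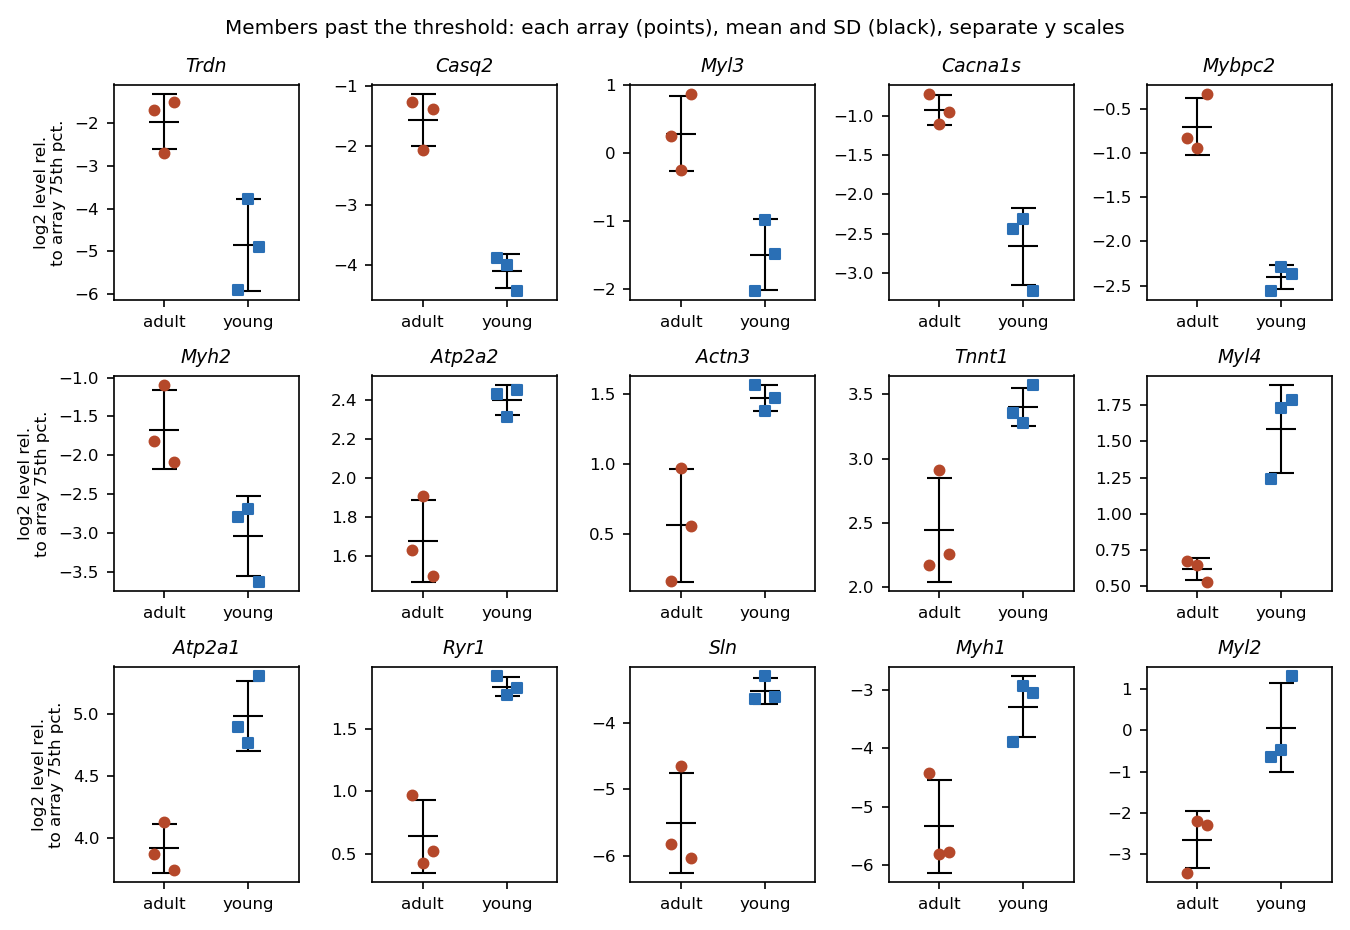
Each panel plots 1 of the 15 members past the threshold, with the log2 level relative to the array's 75th percentile on a separate y axis. Circles are the 3 adult and squares the 3 young arrays, with the mean and SD in black. In every panel the groups do not overlap, and the panels run from Trdn (2.89 higher in adult) to Myl2 (2.72 lower).

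With 3 arrays a group, the calls depended on single samples. All 15 members kept their sign in every alternative that gave a value. Leaving out 1 sample could not change these signs, since the groups did not overlap, and the 15 were picked by the same values. Of them, 9 passed the threshold with the same sign under all 5 other scalings and background corrections with distinct values. The exceptions were Myl4 and Trdn, which passed under 3 of the 5, Atp2a2, Tnnt1 and Actn3, which passed under 2, and Myh2, which passed under 1. Of the 34 members that did not pass, 14 changed sign under at least 1 of the 5, and Ckm, Casq1, Myh7, Myom1 and Tpm3 kept their sign under only 1. Of the 15 members past the threshold, none passed in all 6 fits that left out 1 sample. Without adult sample 1, 2 or 3, the higher and lower counts were 1 and 0, 2 and 1, and 0 and 0. Without young sample 1, 2 or 3 they were 2 and 1, 5 and 6, and 3 and 0. The calls over all genes fell as well, from 9139 to 504, 777 and 296 without adult sample 1, 2 or 3. Without young sample 1, 2 or 3 they fell to 1425, 7719 and 2754, so the loss was not particular to the members. Casq2 passed in 5 of these 6 fits and Mybpc2 in 4. Myh1, Atp2a2, Tnnt1, Myh2 and Actn3 passed in none. Young sample 2, the 1 sample from animals of 2 months, was often the young sample nearest to the adult mean. This held for 10 of the 15 members past the threshold and for 27 of the 49 tested. Between whole arrays it was also the young sample most correlated with adult samples 1, 2 and 3, at 0.925, 0.933 and 0.905. The share over all genes was not counted.

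Myosin heavy chains are the motors of the thick filament and set the speed of a fibre. Of the 7 genes of this group, 1 was higher, 1 lower and 5 did not pass. The difference went in opposite directions for the fast chains Myh2 and Myh1, which lie next to each other. In GRCm38.p6 the order along chromosome 11 is Myh3, Myh2, Myh1, Myh4, Myh8 and Myh13. Myh2, the chain of fast oxidative IIa fibres, stood at -1.81, -1.10 and -2.09 in the adult samples, against -2.80, -2.69 and -3.63 in the young samples. All adult values lay above the young ones, a difference of 1.37 ± 0.38 (SE, adjusted p = 0.0435). It passed under only 1 of the 5 other scalings and corrections, with a difference of 0.54 to 1.49 over them. Myh1, the chain of IIx fibres, stood at -4.43, -5.81 and -5.79 in the adult samples, against -3.89, -2.93 and -3.05 in the young samples. All adult values lay below the young ones, a difference of -2.05 ± 0.47 (SE, adjusted p = 0.0317), but only 1 of the 3 adult arrays had the probe well above background, so the size of the difference is uncertain. Myh4, the chain of fast glycolytic IIb fibres, gave -0.19 (95% interval -1.30 to 0.93), with overlapping groups.

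The chains of other muscles gave no call. Myh7, shared by slow fibres and heart, gave 0.13 ± 0.19, with a negative sign under 4 of the 5 other scalings and corrections, down to -0.63. Myh6, the main chain of the mouse heart, gave 0.12 ± 0.35. A second Myh6 probe, above background on 2 adult arrays and no young array, was not tested. Its groups did not overlap, and it was at least 1.70-fold higher in adult. Myh3, the embryonic chain, stood at -4.53, -5.17 and -3.52 in the adult samples, against -1.14, -3.72 and -0.92 in the young samples. Young samples 1 and 3 were high, while young sample 2 lay below the highest adult value, so that the groups overlapped and the difference of -2.48 ± 0.84 did not pass (adjusted p = 0.0686). A second Myh3 probe gave -4.39, also without a pass. Myh8, the perinatal chain, gave -0.44 ± 0.36.

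Because Myh2 and Myh1 differed in opposite directions while Myh4 gave no call, the 250 bases before the annotated start of each are shown, from RefSeq on GRCm38.p6, plus strand, 5′ to 3′. Capitals mark a 20-base run that all 3 share and, in Myh1 and Myh4, the letters TATAAA nearest the start.
Myh2, chr11:67170777-67171026: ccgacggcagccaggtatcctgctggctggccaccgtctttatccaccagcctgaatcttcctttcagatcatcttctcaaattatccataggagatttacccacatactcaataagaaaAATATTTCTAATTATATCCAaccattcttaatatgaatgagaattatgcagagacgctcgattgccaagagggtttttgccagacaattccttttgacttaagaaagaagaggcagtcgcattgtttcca
Myh1, chr11:67199852-67200101: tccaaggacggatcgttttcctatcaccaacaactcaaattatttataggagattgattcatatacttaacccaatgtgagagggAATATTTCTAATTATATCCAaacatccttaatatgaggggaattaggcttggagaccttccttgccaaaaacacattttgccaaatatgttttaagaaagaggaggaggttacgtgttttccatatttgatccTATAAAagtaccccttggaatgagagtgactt
Myh4, chr11:67237562-67237811: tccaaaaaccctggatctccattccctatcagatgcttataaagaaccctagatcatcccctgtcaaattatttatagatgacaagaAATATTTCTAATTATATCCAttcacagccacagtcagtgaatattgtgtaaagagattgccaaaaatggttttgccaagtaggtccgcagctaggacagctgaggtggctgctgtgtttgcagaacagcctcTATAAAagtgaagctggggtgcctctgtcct

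The shared run begins 130, 165 and 163 bases before the start in Myh2, Myh1 and Myh4. It occurs on either strand in 3 of the 27025 genes with a listed upstream stretch, which are these 3. TATAAA begins 32 bases before the start of Myh1 and 31 before that of Myh4. Upstream stretches were found for 37 of the 50 members and searched on both strands. CAGCTG, the E-box that MyoD-family factors bind, was in 37.8% of them and in 12.8% of all stretches. The looser E-box CANNTG, which includes CAGCTG, was in 83.8% and 66.0%. CATTCC, the MCAT element, was in 29.7% and 12.6%, TATAAA in 16.2% and 13.0%, and a MEF2-type motif (CTA and TAG with 4 bases between them) in 2.70% and 3.23%. Among the members past the threshold, CAGCTG was in 1 of 5 that were higher in adult, Cacna1s, and 1 of 6 that were lower, Atp2a1. A match is a description of these letters in this window.

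Myosin light chains wrap the lever arm of the heavy chain. Of the 5 genes of this group, 1 was higher, 2 lower and 2 did not pass. The essential and the regulatory chain of slow fibres and ventricle differed in opposite directions. Myl3, the essential chain of slow fibres and ventricle, stood at 0.24, -0.25 and 0.86 in the adult samples, against -2.03, -0.99 and -1.49 in the young samples. Every adult value lay above every young value, a difference of 1.79 ± 0.39 (SE, adjusted p = 0.0295), or 3.45-fold higher in adult. Myl2, the regulatory chain of the same muscles, stood at -3.46, -2.21 and -2.29 in the adult samples, against -0.64, -0.48 and 1.32 in the young samples. It was 6.60-fold lower in adult, a difference of -2.72 ± 0.63 (SE, adjusted p = 0.0316). Young sample 3 was the highest by more than 1 log2 unit, and all young values lay above the adult ones.

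Myl4, the essential chain of embryonic muscle and atrium, stood at 0.67, 0.65 and 0.53 in the adult samples, against 1.24, 1.73 and 1.78 in the young samples. The adult values were close together and all below the young ones, a difference of -0.97 ± 0.22 (SE, adjusted p = 0.0301). It passed under 3 of the 5 other scalings and corrections, with differences of -1.49 to -0.64 over them. Mylpf, the fast regulatory chain, gave 1.50 ± 0.68 without a pass (adjusted p = 0.128). Myl1, the fast essential chain, gave -0.44 ± 0.35, and its 2 probes differed in sign.

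Troponins and tropomyosins form the calcium switch of the thin filament. Of the 11 genes, 1 was lower in adult, none was higher and 10 did not pass. Tnnt1, the slow skeletal troponin T, stood at 2.17, 2.91 and 2.26 in the adult samples, against 3.36, 3.28 and 3.57 in the young samples. All adult values lay below the young ones, a difference of -0.96 ± 0.26 (SE, adjusted p = 0.0415). It passed under 2 of the 5 other scalings and corrections, at -1.49 to -0.72. Tnnt2, the cardiac troponin T that developing skeletal muscle also uses, stood at -4.39, -4.17 and -4.03 in the adult samples, against -2.63, -3.48 and -1.26 in the young samples. The groups did not overlap but the spread among young samples was wide, and the difference of -1.74 ± 0.55 did not pass (adjusted p = 0.0591). It passed under 4 of the 5 other scalings and corrections. Tnnt3, the fast troponin T, stood at 0.34, 0.79 and 0.36 in the adult samples, against 0.12, -0.32 and 0.07 in the young samples. Here the adult values were all above the young ones, a difference of 0.54 ± 0.23 without a pass (adjusted p = 0.112).

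The inhibitory and calcium-binding troponins gave small differences with overlapping groups. Tnni2, the fast inhibitory subunit, gave 0.21 ± 0.24, Tnni1, the slow one, -0.34 ± 0.56, and Tnni3, the cardiac one, -0.23 ± 0.72. Tnnc1, the calcium sensor of slow fibres and heart, gave 0.47 ± 0.44 and Tnnc2, that of fast fibres, 0.14 ± 0.33. Tpm1, a tropomyosin whose gene yields many spliced transcripts, stood at 3.09, 2.94 and 2.99 in the adult samples, against 2.69, 2.40 and 2.32 in the young samples. Its brightest probe was higher in every adult sample, by 0.54 ± 0.19, without a pass (adjusted p = 0.0719). Its other 4 probes gave differences from -0.82, which passed, to 1.18, so that no single direction can be given for the gene. Tpm2 gave -0.25 ± 0.19 and Tpm3 -0.09 ± 0.20, both without a pass.

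**Figure D2:**
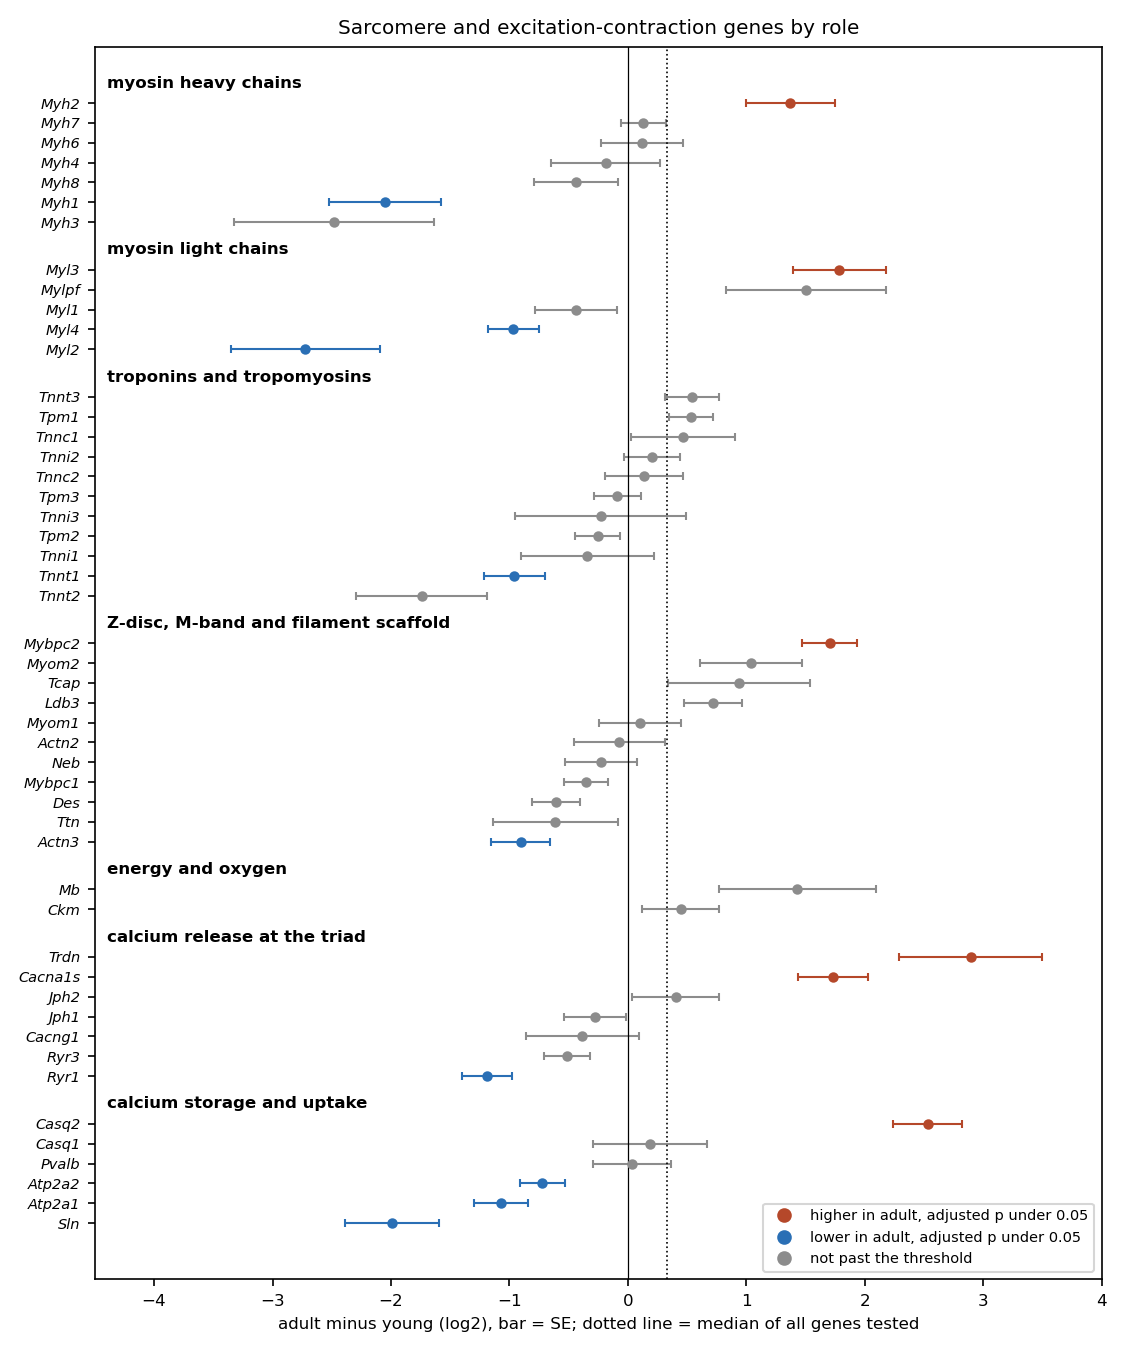
Differences of the 49 members tested, adult minus young on the log2 scale, with bars of 1 SE, grouped by role. The 15 coloured points passed the threshold, 6 of them higher in adult, grey points did not, and the dotted line is the median of all genes, 0.33. Both colours occur in the heavy chains, light chains, scaffold, triad and calcium store groups.

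The scaffold proteins hold the filaments in register. Of the 12 genes of the Z-disc, the M-band and the filaments, 11 were tested, and 1 was higher, 1 lower and 9 did not pass. Mybpc2, the fast myosin-binding protein C whose probe is printed above, stood at -0.83, -0.94 and -0.34 in the adult samples, against -2.56, -2.29 and -2.37 in the young samples. It was 3.25-fold higher in adult, a difference of 1.70 ± 0.23 (SE, adjusted p = 0.0166), with a gap between the groups wider than the range within either. Mybpc1, its slow counterpart, stood at 1.29, 1.18 and 1.45 in the adult samples, against 1.67, 1.80 and 1.52 in the young samples. The groups did not overlap, yet the difference of -0.35 ± 0.18 did not pass (adjusted p = 0.169). Actn3, the alpha-actinin of fast fibres that anchors actin in the Z-disc, stood at 0.17, 0.97 and 0.56 in the adult samples, against 1.56, 1.38 and 1.47 in the young samples. Each adult value lay below each young one, a difference of -0.90 ± 0.25 (SE, adjusted p = 0.0442). It passed under 2 of the 5 other scalings and corrections, with -1.43 to -0.69 over them. Actn2, its partner in all fibres, gave -0.07 ± 0.38 on its brightest probe. A second Actn2 probe, not designed to a RefSeq mRNA, gave 1.01, which passed.

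Des, the muscle intermediate filament that links Z-discs, stood at 4.47, 4.55 and 4.30 in the adult samples, against 5.28, 4.81 and 5.05 in the young samples. All adult values were below the young ones, a difference of -0.61 ± 0.20 without a pass (adjusted p = 0.0665). Ldb3, a Z-disc adaptor protein, stood at -2.27, -2.38 and -1.98 in the adult samples, against -3.29, -2.62 and -2.87 in the young samples. All adult values were above the young ones, a difference of 0.72 ± 0.24, again without a pass (adjusted p = 0.0680), and the sign was negative under 2 of the 5 other scalings and corrections, down to -0.01. The M-band protein Myom2 gave 1.04 ± 0.43 and its relative Myom1 0.11 ± 0.35. Tcap, which caps titin at the Z-disc, gave 0.94 ± 0.60, and Neb, nebulin, the ruler of the thin filament, -0.23 ± 0.30. None of these 4 passed. Myot, a Z-disc protein also known as myotilin, was clearly detected on 1 adult array of 3 and on no young array, and was not tested.

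Ttn, the giant protein titin that spans from Z-disc to M-band, gave probe values of both signs along its length. Its 4 probes, from the 5′ end of the gene to the 3′ end, gave 2.09, -3.37, -0.61 and -1.18, of which only the second passed over all probes. The second and the third of these lie in coding sequence and are shown because differences of such unequal size came from 1 gene. The difference between the probes was not tested. Both are on the minus strand of mm9, printed 5′ to 3′ in the sense of the transcript, in lower case.
Ttn, the second, chr2:76655847-76655906: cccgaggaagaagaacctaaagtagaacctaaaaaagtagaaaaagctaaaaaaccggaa
Ttn, the third, chr2:76551742-76551801: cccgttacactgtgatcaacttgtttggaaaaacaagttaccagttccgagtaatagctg

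The second Ttn probe stood at -5.86, -4.73 and -4.64 in the adult samples, against -0.72, -3.32 and -1.07 in the young samples. Only 2 of 3 adult arrays had it well above background, and young sample 2 again lay nearest to the adult values. The third, the brightest, stood at -1.17, -2.73 and -2.41 in the adult samples, against -0.70, -1.98 and -1.79 in the young samples. There the groups overlapped. Across the members, 16 genes had more than 1 tested probe. The signs agreed in 9 of them and differed in 7, which were Actn2, Myh8, Myl1, Neb, Tpm1, Tpm3 and Ttn. The positive Neb probe lies on the plus strand, unlike the other Neb probes, which lie on the minus strand. Neither it nor the positive Actn2 probe was designed to a RefSeq mRNA. Over all 72 member probes tested, 10 were higher and 11 lower in adult. The share over all probes of the array was not counted. Among brightest probes only, with the same adjustment over all probes, 6 members were higher and 8 lower. Of all 32109 genes, 5937 were higher and 2055 lower in that fit.

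**Figure D3:**
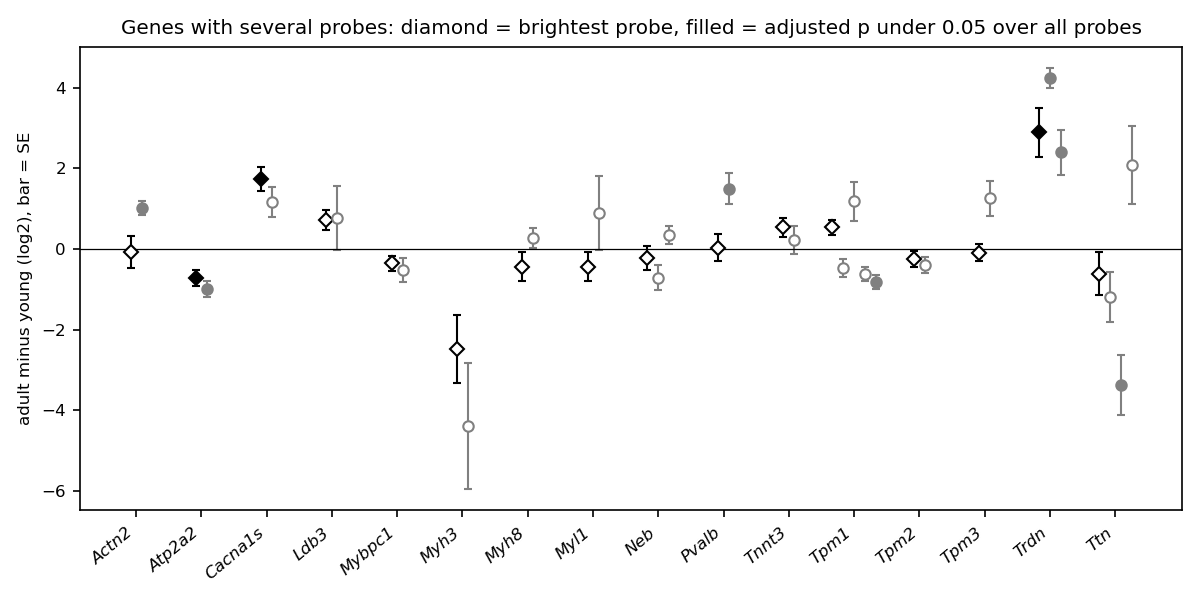
Difference of each tested probe, adult minus young on the log2 scale with bars of 1 SE, for the 16 members with more than 1. Diamonds are the brightest probe, and filled symbols passed the threshold over all probes. The 3 Trdn probes are all higher in adult, and the highest of them has only a bound in the young samples, while the 4 Ttn probes lie between -3.37 and 2.09.

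At the triad, where the transverse tubule meets the calcium store, 7 genes were tested, and 2 were higher, 1 lower and 4 did not pass. The voltage sensor and the release channel that it opens differed in opposite directions. Cacna1s, the pore-forming subunit of the voltage sensor, stood at -0.73, -1.10 and -0.95 in the adult samples, against -2.45, -2.32 and -3.22 in the young samples. It was 3.32-fold higher in adult with no overlap, a difference of 1.73 ± 0.29 (SE, adjusted p = 0.0217). Its second probe gave 1.16 in the same direction, without a pass. Ryr1, the skeletal ryanodine receptor, stood at 0.97, 0.43 and 0.53 in the adult samples, against 1.91, 1.76 and 1.82 in the young samples. The young values were nearly equal and all above the adult ones, and the gene was 2.28-fold lower in adult, a difference of -1.19 ± 0.21 (SE, adjusted p = 0.0229).

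Trdn, triadin, which ties calsequestrin to the ryanodine receptor, stood at -1.70, -2.69 and -1.49 in the adult samples, against -5.90, -3.77 and -4.89 in the young samples. Every adult value lay above every young value, a difference of 2.89 ± 0.61 (SE, adjusted p = 0.0277), of uncertain size because only 2 of 3 young arrays had the probe well above background. It passed under 3 of the 5 other scalings and corrections, with differences of 0.94 to 3.01, and in 1 of the 6 fits that left out a sample. All 3 Trdn probes passed and were higher in adult. One of them was not well above background on any young array. It met the filter through the adult arrays alone, so its pass adds no support. That probe was at least 4.93-fold higher in adult. Its young level is bounded by the weakest signal that was well above background or by the probe's own. Ryr3, a second ryanodine receptor of developing muscle, stood at 0.32, 0.62 and 0.16 in the adult samples, against 0.90, 0.89 and 0.85 in the young samples. All adult values lay below the young ones, a difference of -0.52 ± 0.19 without a pass (adjusted p = 0.0852). The junctophilins Jph1 and Jph2, which hold the triad membranes together, gave -0.28 ± 0.26 and 0.40 ± 0.37, and Cacng1, the gamma subunit of the voltage sensor, gave -0.38 ± 0.48. Their groups overlapped.

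Storage and uptake of calcium in the sarcoplasmic reticulum had 1 higher and 3 lower genes among 6. The store protein of slow fibres and heart was higher, while both pumps and a pump inhibitor were lower. Casq2, the calsequestrin of slow fibres and heart, stood at -1.26, -2.07 and -1.38 in the adult samples, against -3.89, -4.00 and -4.43 in the young samples. It had the smallest adjusted p of all members and was 5.78-fold higher in adult, a difference of 2.53 ± 0.29 (SE, adjusted p = 0.0135). The call held under all 5 other scalings and corrections, with differences of 0.97 to 2.65. Casq1, the fast calsequestrin, gave 0.19 ± 0.48 with overlapping groups, and its sign was negative under 4 of the 5 other scalings and corrections. Atp2a1, the fast calcium pump, stood at 3.87, 4.13 and 3.75 in the adult samples, against 4.89, 4.76 and 5.30 in the young samples. All adult values lay below the young ones, a difference of -1.07 ± 0.23 (SE, adjusted p = 0.0279). Atp2a2, the pump of slow fibres and heart, stood at 1.63, 1.91 and 1.50 in the adult samples, against 2.43, 2.31 and 2.45 in the young samples. All adult values again lay below the young ones, a difference of -0.72 ± 0.19 (SE, adjusted p = 0.0397), and its second probe gave -0.98, which also passed. The brightest probe passed under 2 of the 5 other scalings and corrections, at -1.25 to -0.46.

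Sln, sarcolipin, a small peptide that inhibits the pump, stood at -5.83, -4.65 and -6.04 in the adult samples, against -3.64, -3.30 and -3.61 in the young samples. The adult values were all below the young ones, a difference of -1.99 ± 0.40 (SE, adjusted p = 0.0258), of uncertain size because 1 of 3 adult arrays had it well above background. Pvalb, parvalbumin, the soluble calcium buffer of fast fibres, gave 0.04 ± 0.33 on its brightest probe, with overlapping groups, and 1.50 on its second, which passed. The 2 genes of energy and oxygen supply gave no call. Mb, myoglobin, which stores oxygen, stood at -2.48, -2.40 and -1.86 in the adult samples, against -5.00, -3.70 and -2.33 in the young samples. Young sample 3 lay above adult sample 2, and the difference of 1.43 ± 0.66 did not pass (adjusted p = 0.136). Ckm, muscle creatine kinase, gave 0.45 ± 0.32, but its sign was negative under 4 of the 5 other scalings and corrections, down to -0.98. For both genes only 2 of 3 young arrays had the probe well above background, so the size of the difference is uncertain.

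Sorted by the muscle in which an isoform predominates, only the small group of developmental isoforms had differences of 1 sign on the brightest probes. Its 3 members were negative in the main values and under each scaling, and 1 of them passed. A second Myh8 probe gave 0.26 without a pass, so the shared sign depends on the choice of probe. Of 13 fast isoforms, 2 were higher and 3 lower, with a median of 0.14. Of 9 slow isoforms, 2 were higher and 3 lower, with a median of -0.34. Of the 3 embryonic and neonatal isoforms, Myl4 was lower and Myh3 and Myh8 did not pass, with a median of -0.97. None of the 3 cardiac isoforms, Myh6, Tnni3 and Tnnt2, passed, with a median of -0.23. The 21 tested members with no class gave 2 higher and 2 lower, with a median of -0.07.

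A ratio of 2 isoforms within an array does not depend on a single scaling factor for that array. In 11 such pairs the change of the ratio was tested by a two-sided exact permutation of the 6 samples, in which 3 against 3 cannot give a p under 0.1. Adult and young ratios did not overlap in 7 pairs, each with exact p = 0.1 and an adjusted value of 0.157 over the 11 pairs. By this test none passes. Among single genes, 55.5% of all those tested did not overlap, and the share over other pairs of genes was not computed. In 3 of the 7 the ratio of fast to slow partner was higher in every adult array: Mylpf over Myl2 by 4.23 ± 0.94, Mybpc2 over Mybpc1 by 2.06 ± 0.15 and Tnnt3 over Tnnt1 by 1.50 ± 0.14. In 3 it was lower in every adult array, with a difference of -2.35 ± 0.75 for Casq1 over Casq2, -2.22 ± 0.74 for Myl1 over Myl3 and -0.35 ± 0.13 for Atp2a1 over Atp2a2. The seventh, Ryr1 over Ryr3, also had lower values in every adult array, with a difference of -0.67 ± 0.25. Standard errors of the ratios come from the spread within each group of 3, without limma. A ratio does not remove a difference that goes with signal level, as described below. In the 3 pairs with a higher ratio the fast partner had the dimmer probe. Mean probe signals, fast against slow, were -3.35 against -1.29, -1.55 against 1.49 and 0.23 against 2.92. The dimmer partner was also relatively higher in adult for Atp2a1/Atp2a2 and Ryr1/Ryr3, but not for Casq1/Casq2 or Myl1/Myl3. The part of level was not tested.

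Relative to the probes used, the log2 ratio of Mybpc2 to Mybpc1 was -2.12, -2.12 and -1.79 in the adult samples, against -4.23, -4.09 and -3.89 in the young samples. The spread within each group was small beside the gap, as it also was for Tnnt3 over Tnnt1, at -1.83, -2.12 and -1.90 in the adult samples, against -3.24, -3.60 and -3.50 in the young samples. Casq1 over Casq2 was tight in the young and wide in the adult group, at -2.45, -0.77 and -3.31 in the adult samples, against 0.25, 0.01 and 0.25 in the young samples. The other 4 pairs overlapped, with differences of -0.83 ± 0.59 for Actn3 over Actn2, 0.55 ± 0.62 for Tnni2 over Tnni1, -0.33 ± 0.76 for Tnnc2 over Tnnc1 and -0.32 ± 0.58 for Myh4 over Myh7. The sign of these differences was thus not the same for all proteins of a fibre class.

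**Figure D4:**
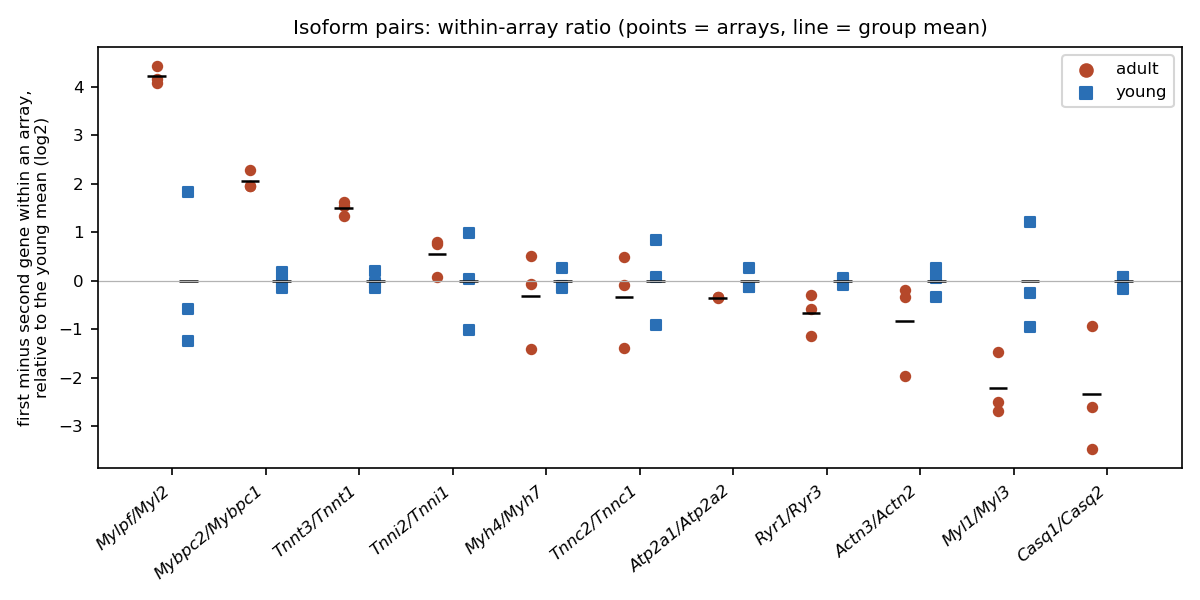
Log2 ratio of the first to the second gene within each array, set relative to the mean of the young arrays, for 11 pairs. Circles are adult and squares young arrays, and lines are group means. Mylpf/Myl2, Mybpc2/Mybpc1 and Tnnt3/Tnnt1 lie above the young arrays in adult, Casq1/Casq2, Myl1/Myl3, Ryr1/Ryr3 and Atp2a1/Atp2a2 below, and 4 pairs overlap.

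The direction of a difference went with the signal level, among the members and on the whole array. Of the 15 members whose mean level lay above the 75th percentile of the array, none was higher and 6 were lower in adult, namely Atp2a1, Tnnt1, Atp2a2, Ryr1, Myl4 and Actn3. All 6 members that were higher lay below it, with 3 that were lower, Myl2, Myh1 and Sln. Over all genes the median difference was 1.73 for levels under -4, 0.88 from -4 to -2, 0.18 from -2 to 0, and -0.27 both from 0 to 2 and over 2. The medians of the members in the same ranges were -1.99 (3 members), 0.16 (14), 0.14 (17), -0.38 (9) and -0.66 (6). Sln and Myh1 were the 2 called members in the dimmest range, where 0.608% of all genes were lower in adult and 35.3% were higher. What underlies the relation of direction to level was not tested.

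**Figure D5:**
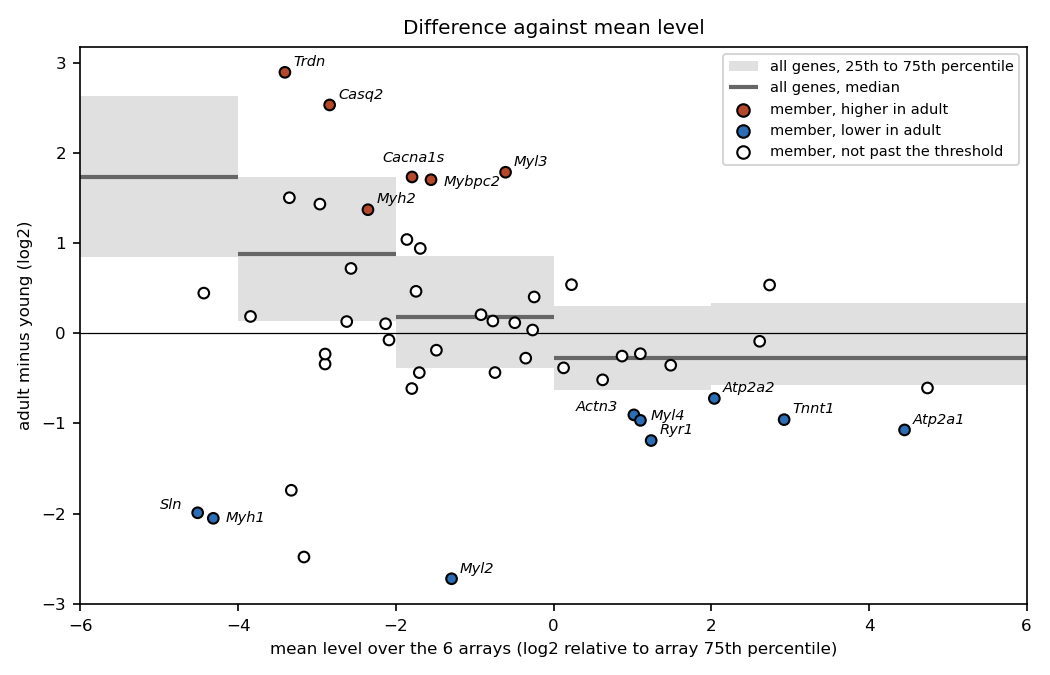
Difference of each of the 49 members, adult minus young (log2), against its mean level over the 6 arrays. Grey lines and bands are the median and the 25th to 75th percentile of all genes in 5 ranges of level, coloured members passed the threshold, and open ones did not. The 6 members higher in adult lie left of 0, and 6 of the 9 lower ones lie right of 0.

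The other genes of these structures were read from 2 lists of genes outside the 50. Of them 17.1% of the sarcomere list and 26.1% of the excitation-contraction list passed, against 28.5% of all genes. Over both lists 2 genes were higher and 10 lower, a split that scaling moved to 6 and 8 with the 75th percentile of probes above background on all arrays. Of 35 further sarcomere genes tested out of 37, 1 was higher and 5 lower, although 22 of the 35 differences were positive and the median was 0.51. Lmod3, a leiomodin that nucleates thin filaments, was higher, by 1.03 ± 0.17 (SE, adjusted p = 0.0207). Actc1, the actin of heart and embryonic muscle, stood at -6.78, -2.68 and -1.92 in the adult samples, against 2.58, 2.45 and 2.91 in the young samples. The young values were close together and the adult ones spread over almost 5 log2 units, with 2 of 3 adult arrays above background, and the difference was -6.44 ± 1.24 (SE, adjusted p = 0.0252). Acta1, the actin of mature skeletal muscle, fell by 1.17 (adjusted p = 0.0371). Mybph, a myosin-binding protein, fell by 1.63 (adjusted p = 0.0197), the kinase gene Mylk4 by 1.54 (adjusted p = 0.0281) and the LIM protein gene Fhl1 by 0.89 (adjusted p = 0.0477).

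Of 23 further excitation-contraction genes tested out of 24, 1 was higher and 5 lower, with a median of -0.49. Cacng6, a calcium channel gamma subunit, was higher, by 1.53 ± 0.34 (SE, adjusted p = 0.0301). Srl, sarcalumenin, a calcium-binding protein of the store, stood at -0.55, 0.13 and -0.74 in the adult samples, against 2.04, 1.37 and 1.80 in the young samples. Its groups were more than 1 log2 unit apart, and the difference was -2.12 ± 0.31 (SE, adjusted p = 0.0185). Bin1, which shapes transverse tubules, fell by 1.22 (adjusted p = 0.0265), and Stac3, an adaptor that the voltage sensor needs, fell by 1.15 (adjusted p = 0.0278). Pygm, muscle glycogen phosphorylase, fell by 0.97 (adjusted p = 0.0372) and Jsrp1, a protein of the junctional store membrane, by 0.85 (adjusted p = 0.0434). At the triad, then, Stac3, Jsrp1 and Ryr1 were lower in adult and Cacna1s, Cacng6 and Trdn higher.

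Markers of differentiating muscle cells were mostly lower in adult. Of 10 markers of myoblasts and myocytes, 6 were lower in adult and none higher, against 7.8% and 20.7% of all genes. Their summed linear level lay between 9.70 and 11.2 times the array's 75th percentile in adult and between 48.9 and 69.7 times in young samples. Myog, which drives terminal differentiation, gave -5.22, while Myod1, the determination factor, gave -0.62 without a pass. Cdkn1c, an inhibitor of the cell cycle, made up 22.8% of the sum in adult and 63.3% in young samples, with a difference of -3.93. The median of the 10 markers, each relative to its own mean over the 6 arrays, was -1.23, -0.94 and -0.98 in adult and 1.15, 0.92 and 1.22 in young samples, without overlap. In RNA from a sorted population, fewer cells of a type and less RNA per cell cannot be told apart. The part of such cells in the members' differences was not tested.

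Markers of the satellite cells themselves and of other cells are given beside the shares of all genes tested, of which 20.7% were higher and 7.8% lower. Their linear sums follow the brightest probe of each list. Of the 12 satellite cell markers 6 were lower in adult, including Itga7, the sorting marker, at -1.06, while Cd34 at -0.15 and Myf5 at -0.35 did not pass, and the summed level was 126 to 161 in adult and 169 to 189 in young samples. Of 12 smooth muscle and mural cell markers 4 were higher and 2 lower, with Pdgfrb at 2.15, Acta2 at -2.08, Tagln at -0.01 and Myh11 at 0.45, and summed levels of 78.3 to 83.5 in adult and 71.9 to 91.5 in young samples. Of 8 leukocyte markers 3 were higher, among them Adgre1 at 2.34 and, not above background on any young array, Tyrobp by at least 31.7-fold, with Ptprc at 0.51 without a pass. All 8 differences were positive, with a median of 0.59, and 5 had no overlap. Over all genes, 60.2% of the differences were positive and 55.5% had no overlap, and dim genes leaned higher in adult. The leukocyte sums, of which Itgam made up 96.8% in adult and 97.2% in young samples, were 391 to 415 in adult and 224 to 436 in young samples. The median of the 8 markers relative to their means was 0.24, 0.92 and 0.88 in adult and -0.52, -0.40 and -0.37 in young samples, without overlap. Of 4 adipocyte markers tested 2 were higher, with Adipoq at 3.16, and the median difference was 1.53. The adipocyte sums, of which Fabp4 made up 85.9% in adult and 96.9% in young samples, were 3.50 to 17.1 in adult and 6.95 to 10.74 in young samples. The median of the 4 markers relative to their means was 1.23, 0.68 and 1.27 in adult and -1.64, -0.60 and -0.16 in young samples, without overlap. Of 8 endothelial markers 1 was higher, with Pecam1 at -0.79 without a pass, and summed levels of 18.9 to 25.9 in adult and 18.3 to 28.7 in young samples. Of 7 fibro-adipogenic markers tested 1 was higher and 2 lower, with Ly6a at 0.14, and summed levels of 31.5 to 47.4 in adult and 76.0 to 83.6 in young samples. Pdgfra was above background on no array. Of 4 tenocyte markers tested, Scx was lower, at -1.03, and summed levels were 2.03 to 4.25 in adult and 4.79 to 9.41 in young samples. Their part in the members' differences was not tested.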

How the data were processed

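Per the labels' protocols, RNA of each sorted sample went through whole transcriptome amplification and was hybridised with Cy3 to 1 single-colour Agilent array, all 6 on 1 slide. Per the file headers, Feature Extraction 10.7.3.1 made the deposited intensity values, which were background-subtracted and detrended but not scaled between arrays. The authors' deposited value table of the series held log2 values that differed by at most 0.000106 from a normexp correction (offset 50) with quantile normalization, so their scale and centring were taken from that match. Control spots (3671 per array) and outlier spots were left out, and none was saturated. The main values were log2 processed intensity relative to the 75th percentile of the array. A probe had to be well above background on 3 or more arrays, the brightest probe stood for each gene name, and limma 3.58.1 in R 4.3.3, with files read by data.table in version 1.17.8, compared adult with young, with Benjamini-Hochberg adjustment over 32109 genes. The fit was tested on simulated data. The number of arrays limits the precision. Probe positions are mm9, as in the files.

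The members and all gene lists were chosen with earlier results of these data known. By the naming rule, per-sample values are given for members past the threshold or without overlap and for the member of each role with the smallest p. It also takes the 6 smallest p of each outside list, and defining genes with up to 3 further members of each marker list. Other genes with values in each sample (Myh3, Ttn) were chosen after seeing their values. Deviations from the group means correlated at -0.0039, -0.09 and -0.14 between samples of the same number, so the numbers do not pair samples. Alternatives covered scaling, background correction, filters, probe choice, variance model, array weights, blocks and left-out samples.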

Additional observations from a re-analysis of the deposited data

How the results depend on the processing

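The main counts were 6 members higher and 9 lower in adult, 2 and 10 genes of the outside lists, and a member median of -0.09, with 21 members at an unadjusted p under 0.05. Quantile normalization gave a median of -0.41 and 0 outside genes higher. Median scaling gave 15 members lower, a median of -0.62, and 1 outside gene higher and 21 lower. The 75th percentile of probes above background on all arrays gave 6 outside genes higher and 8 lower, keeping only those probes gave 6 and 9, and array weights gave 4 higher. The array row as a block gave 4 members higher and 7 lower and 2 and 7 outside genes, with 6086 genes called in all against 9139. Normexp with quantile normalization and the series matrix values, which are the same values, gave a median of -0.30 each. Relative to all genes, whose median was 0.33 here, -0.06 with quantile normalization, -0.20 with median scaling and 0.45 with the other percentile, the members' median lay at -0.42, -0.35, -0.42 and -0.42. Leaving out 1 sample gave 0 to 5 members higher and 0 to 6 lower, 0 to 5 outside genes higher and 0 to 8 lower, and 7 to 8 pairs without overlap. Those fits called 296 to 7719 genes in all, against 9139. With the replicate number as a block, a pairing that the samples do not bear out, limma called 0 members higher, 0 lower, 0 outside genes higher and 0 lower, with 19 members at an unadjusted p under 0.05. Ckm reversed under quantile normalization, at -0.98 (adjusted p = 0.0465) against 0.45, and was negative without a pass under median scaling, cyclic loess and normexp. The cause of these shifts was not tested. A slide block was not run, since there was 1 slide. Pair ratios were not refitted where the alternative acts on the model alone. Depth is set by signal over background: Myot, Sln, Myh1, Trdn, Mb and Ckm lay near background in a group.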
